A study of Mus musculus with 16 samples.

Results

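Chromatin accessibility was described at 3 windows of the mouse genome named for the tuft cell genes Pou2f3, Trpm5 and Dclk1. A region of the authors' table belonged to a window if it lay wholly within it, so position alone decided membership once the windows were set. The windows were chosen with earlier results of these data known. On the mm9 build, 64 regions lay in the Pou2f3 window (chr9:42860000-43080000, 220 kb), 64 in the Trpm5 window (chr7:150180000-150340000, 160 kb) and 58 in the Dclk1 window (chr3:54980000-55420000, 440 kb), together 186 of the 250313 regions measured. Within each window the regions, all 500 bp long, are numbered here by position.

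Tuft cells are chemosensory epithelial cells, and the thymic medulla of the mouse holds cells of this kind. POU2F3 is the POU-domain transcription factor on which the tuft lineage depends. TRPM5 is the calcium-activated cation channel that acts late in the taste transduction cascade of these cells. DCLK1 is a doublecortin-like kinase widely used as a tuft cell marker in mouse intestine. Medullary thymic epithelial cells (mTECs) display self antigens to developing T cells. Cells with high surface MHC class II are called mTEChi and those with low MHC class II mTEClo.

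ATAC-seq uses the transposase Tn5 to insert sequencing adapters into open DNA. Libraries came from 8 groups with 2 libraries each: Aire-/-, Aire+/+, Brg1-/- and Brg1+/+ mTEChi, and the same 4 genotypes of mTEClo. All mice were labelled C57BL/6 and 4 weeks old, and 60000 sorted cells went into each reaction. The gate took live cells without CD45 that carried EpCAM and bound UEA and had little Ly51. Aire is the nuclear factor that drives expression of tissue-restricted antigens in mTECs, and Brg1 is the ATPase of BAF chromatin remodelling complexes. The column names of the Brg1+/+ libraries contain NOCRE. No source used here names a Cre driver or says whether the Aire+/+ mice carried Cre. Nor do the labels say that paired libraries were made from different mice. The p-values therefore reflect library-to-library spread, which may be technical. The Aire line below means both Aire genotypes, and the Brg1 line both Brg1 genotypes.

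The regions could not be assigned to genes, exons or introns, because the gene tables at hand belong to another build (GRCm38.p6). In that build the nearest protein-coding genes are Tlcd5 and Oaf beside Pou2f3, Tssc4 and Kcnq1 beside Trpm5, and Sohlh2 and Nbea beside Dclk1. A window is therefore a stretch of chromosome that bears a gene's name, and loci of mTEC and tuft cell markers were not checked. ATAC-seq of a sorted population also does not tell fewer cells of a type from less accessibility per cell.

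RefSeq promoter sequences (GRCm38.p6, 250 bases before to 50 after an annotated start) were at hand for 2 of the 3 genes. They are shown because they hold the start sites of the genes that name the Trpm5 and Dclk1 windows, and capitals mark CpG dinucleotides. The Trpm5 promoter lies on the minus strand at chr7:143094593-143094892, and the Dclk1 promoters on the plus strand at chr3:55242114-55242413 and chr3:55461478-55461777.
Trpm5 promoter: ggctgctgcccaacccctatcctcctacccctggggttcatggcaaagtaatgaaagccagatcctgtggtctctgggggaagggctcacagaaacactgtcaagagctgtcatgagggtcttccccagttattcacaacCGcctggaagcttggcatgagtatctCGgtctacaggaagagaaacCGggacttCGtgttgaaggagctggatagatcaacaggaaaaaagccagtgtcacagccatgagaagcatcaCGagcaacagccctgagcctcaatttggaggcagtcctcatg
Dclk1 promoter 1: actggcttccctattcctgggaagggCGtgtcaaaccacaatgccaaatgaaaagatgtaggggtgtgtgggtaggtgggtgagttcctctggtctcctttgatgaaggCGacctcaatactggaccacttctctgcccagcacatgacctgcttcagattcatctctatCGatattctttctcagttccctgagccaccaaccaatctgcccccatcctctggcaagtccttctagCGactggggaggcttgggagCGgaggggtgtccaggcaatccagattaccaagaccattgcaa
Dclk1 promoter 2: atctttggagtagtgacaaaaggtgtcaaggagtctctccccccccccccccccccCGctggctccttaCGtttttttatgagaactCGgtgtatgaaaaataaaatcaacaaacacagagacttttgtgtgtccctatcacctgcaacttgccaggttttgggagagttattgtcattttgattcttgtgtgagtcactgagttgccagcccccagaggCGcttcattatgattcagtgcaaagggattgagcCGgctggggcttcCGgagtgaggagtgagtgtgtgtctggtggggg
The Trpm5 promoter held 5 CpGs, and the Dclk1 promoters held 5 and 6, against a median of 7 over 32851 promoter windows of the same length. The octamer bound by POU factors, spelled ATGCAAAT and searched on both strands, occurred in none of these 3 promoter sequences. It occurred in 1.74% of all promoter windows. The variant ATGCNAAT, which includes the octamer, was also not found in the 3 promoter sequences and occurred in 3.15% of all promoter windows. None of the 3 sequences could be placed on the mm9 regions below.

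Median signal per library ranged from 11.8 to 19.8 in the 8 mTEChi libraries and from 8.51 to 13.9 in the 8 mTEClo libraries. The values are not counts, so read depth is unknown. The Aire+/+ mTEChi 2 library was the least like the other mTEChi libraries. Its median Pearson correlation with them across all tested regions was 0.543, against 0.582 to 0.685 for the other 7 mTEChi libraries. The mTEClo libraries had 0.726 to 0.791 among themselves. Results that change without the Aire+/+ mTEChi 2 library are given with their value.

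The Trpm5 window was the most densely covered, with 40.0 regions per 100 kb, against 29.1 at Pou2f3 and 13.2 at Dclk1. The median region had a mean signal over all libraries of 15.5 at Pou2f3, 13.4 at Trpm5 and 14.0 at Dclk1, close to the 14.2 of the median region of the whole table. Regions with a mean signal under 7.48, the 10th percentile of all regions, were left out of tests. That removed 9 of the 186 members (1 at Pou2f3, 2 at Trpm5 and 6 at Dclk1) and kept 177 (63, 62 and 52). Group differences below are on the log2(signal + 1) scale and were tested with limma, with Benjamini-Hochberg adjustment over all 225281 regions that passed the filter.

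The most accessible region of the 3 windows was Pou2f3 region 16 (chr9:42913769-42914268), at the 97.1st percentile of mean signal in the table. It had a signal of 83.3, 101 and 164 (lowest, median and highest of 8 libraries) in mTEChi and of 103, 130 and 152 in mTEClo. The ranges overlapped, and the difference was -0.33 (SE 0.14, limma adjusted p = 0.058), and -0.76 after re-centring each library on its median (limma adjusted p = 0.00039). It also passed the threshold with a filter at the 50th percentile (limma adjusted p = 0.045), after quantile normalization (limma adjusted p = 0.039), and without the Aire-/- mTEChi 2 library, the highest of all (-0.45, limma adjusted p = 0.0072). The highest regions of the other windows reached the 91.0th percentile at Trpm5 (region 40) and the 92.8th at Dclk1 (region 41).

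The first comparison asks how accessibility differed between the MHC class II fractions, over the mean of the 4 genotypes. At Pou2f3 14 of 63 tested regions were higher and 5 were lower in mTEChi than in mTEClo. At Trpm5 11 of 62 were higher and 3 lower. Dclk1 had the opposite split, with 2 of 52 higher and 9 lower. Across the genome, 27.1% of tested regions were called higher and 10.6% lower, so calls made up 24.9% of the members, against 37.7% of all regions. The median difference was 0.091 at Pou2f3, 0.30 at Trpm5 and -0.31 at Dclk1, against 0.33 over all regions tested.

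The genome-wide median of 0.33 depends on how libraries are scaled. After quantile normalization it was -0.017, after re-centring each library on its median it was -0.10, and after cyclic loess normalization it was 0.031. Under these 3 scalings the split at Pou2f3 turned to 8 higher and 13 lower, 6 and 12, and 8 and 11. At Trpm5 it became 7 and 7, 7 and 7, and 7 and 6. At Dclk1 it stayed with mTEClo, at 1 and 18, 1 and 20, and 1 and 17. The share of all regions called higher was 16.5%, 14.5% and 17.6% under the 3 scalings, and the share called lower was 17.5%, 20.2% and 15.8%.

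**Figure D1:**
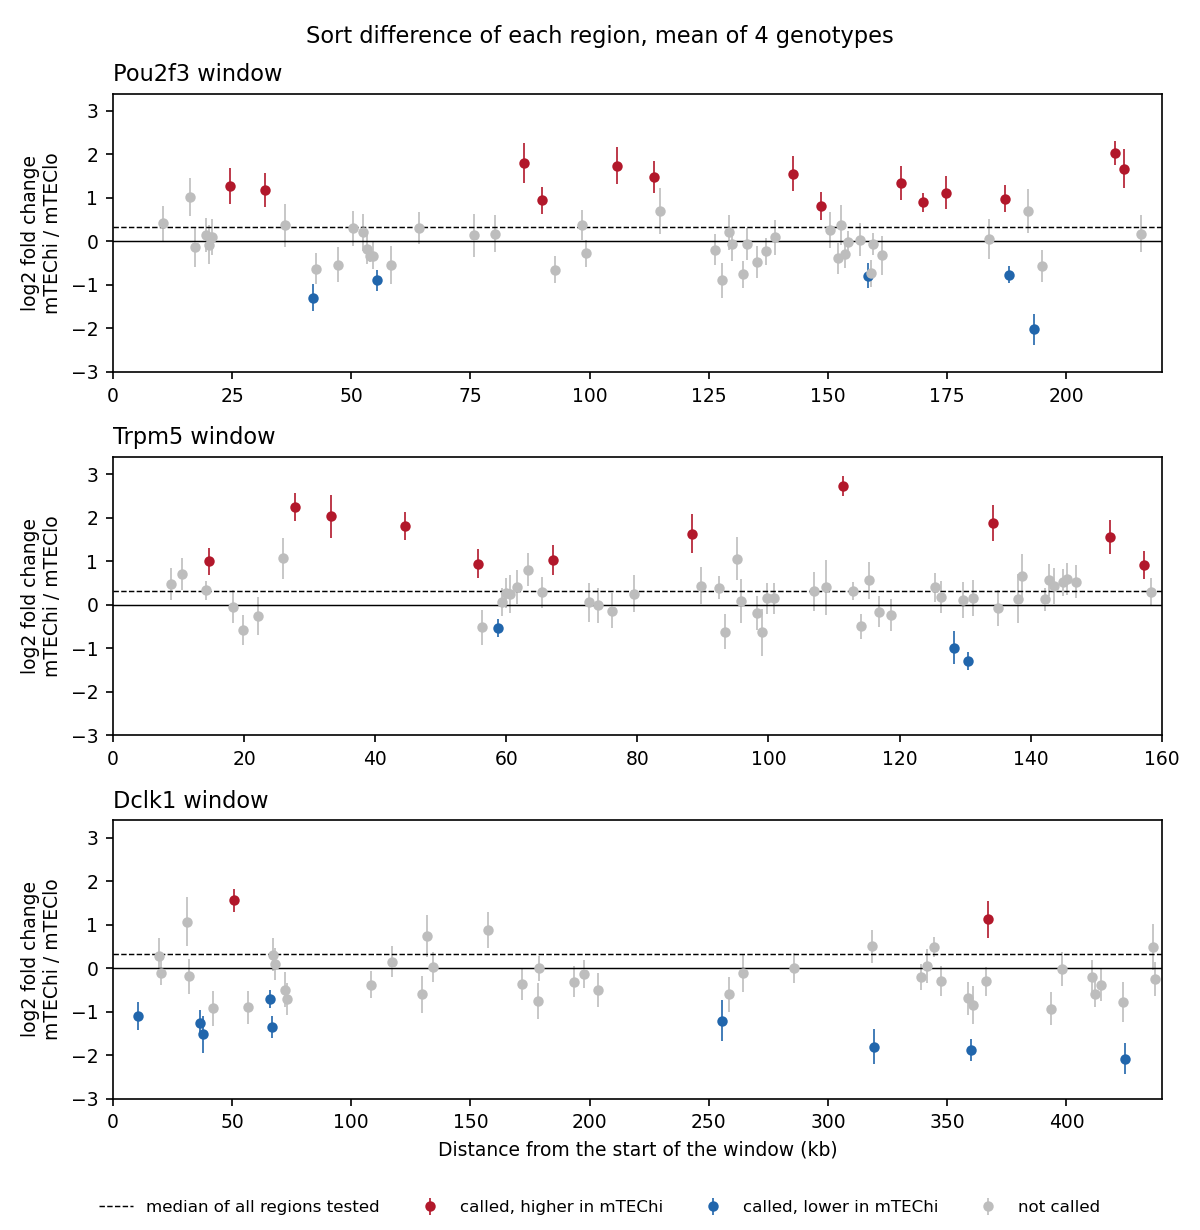
Log2 fold change of mTEChi over mTEClo (mean of 4 genotypes, y axis) for each tested region against its distance from the start of its window in kb (x axis); bars are limma standard errors, red and blue points are regions called at an adjusted p under 0.05, and the dashed line is the median of all regions tested (0.33). Called regions are mostly red in the Pou2f3 and Trpm5 windows (14 of 19 and 11 of 14) and mostly blue in the Dclk1 window (9 of 11).

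At Trpm5, region 40 (chr7:150291144-150291643) had the largest called difference of all members. Its signal was 53.1 and 80.1 in Aire-/-, 104 and 104 in Aire+/+, 110 and 103 in Brg1-/- and 111 and 126 in Brg1+/+ mTEChi. In mTEClo it was 10.9 and 14.1 in Aire-/-, 12.0 and 15.6 in Aire+/+, 11.6 and 26.9 in Brg1-/- and 12.5 and 10.9 in Brg1+/+. Every mTEChi library lay above every mTEClo library, and the mean reached 98.9 ± 22.4 in mTEChi, against 14.3 ± 5.32 in mTEClo (SD, n = 8 each). The log2 fold change was 2.72 (SE 0.23, limma adjusted p = 1.41e-10). Region 40 was also the 1 member called in each of the 4 genotypes, with log2 fold changes of 2.31 in Aire-/-, 2.84 in Aire+/+, 2.52 in Brg1-/- and 3.23 in Brg1+/+. Genome-wide, 1.34% of regions were called higher and 0.594% lower in all 4 genotypes.

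Near the start of the Trpm5 window, 4 consecutive regions, 9 to 12, were all called higher in mTEChi, over chr7:150207587-150235978. Region 9 (chr7:150207587-150208086) had a signal of 24.8, 33.2 and 61.0 (lowest, median and highest) in mTEChi and of 3.01, 7.65 and 10.3 in mTEClo. The fractions did not overlap there, and the log2 fold change was 2.25 (SE 0.33, limma adjusted p = 1.88e-06). Region 11 (chr7:150224357-150224856) had 19.5, 36.5 and 64.7 in mTEChi and 3.81, 9.13 and 19.2 in mTEClo, again without overlap (1.81, SE 0.32, limma adjusted p = 4.08e-05). Region 10 (chr7:150212951-150213450), between them, was less even. It had a signal of 25.01 and 55.6 in Aire-/-, 31.7 and a listed 0 in Aire+/+, 9.84 and 35.7 in Brg1-/-, and 38.3 and 60.4 in Brg1+/+ mTEChi. Against these, its mTEClo signal ran from 0.412 to 9.53 with a median of 5.10. The log2 fold change of 2.03 (SE 0.50, limma adjusted p = 0.00155) includes the listed 0, and with the Aire line alone it was 0.78 and not called (limma adjusted p = 0.53).

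Trpm5 region 50 (chr7:150310198-150310697) went the other way. Its signal was 20.7, 31.8 and 44.5 in mTEChi and 61.6, 81.5 and 90.7 in mTEClo, without overlap (-1.29, SE 0.21, limma adjusted p = 8.70e-06). It lay about as high in signal as region 40, at the 90.8th and 91.0th percentiles of mean signal, so the most accessible regions of the Trpm5 window did not share a direction. Trpm5 region 3 (chr7:150193890-150194389), the remaining member of the 3 highest there, had 31.3, 60.3 and 87.4 in mTEChi and 22.1, 54.6 and 72.1 in mTEClo and was not called (0.33, SE 0.22, limma adjusted p = 0.25). Its sign turned after re-centring (-0.099).

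Region 52 (chr7:150314047-150314546) had a log2 fold change of 1.88, from a median signal of 19.9 in mTEChi and 5.29 in mTEClo, and its 67.1 in the Aire-/- mTEChi 2 library stood far above the other mTEChi values (6.48 to 26.6). Region 28 (chr7:150268036-150268535, 1.64) and region 62 (chr7:150331914-150332413, 1.55) were also called higher in mTEChi. Median signal at region 28 was 10.8 in mTEChi and 4.17 in mTEClo, and at region 62 it was 29.7 and 6.86. With the Aire line alone the differences were 1.61 and 1.54, and neither was called (limma adjusted p = 0.087 and 0.055). With the Brg1 line alone region 28 had 1.67 and was also not called (limma adjusted p = 0.061). Fits with 1 line have fewer libraries.

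**Figure D2:**
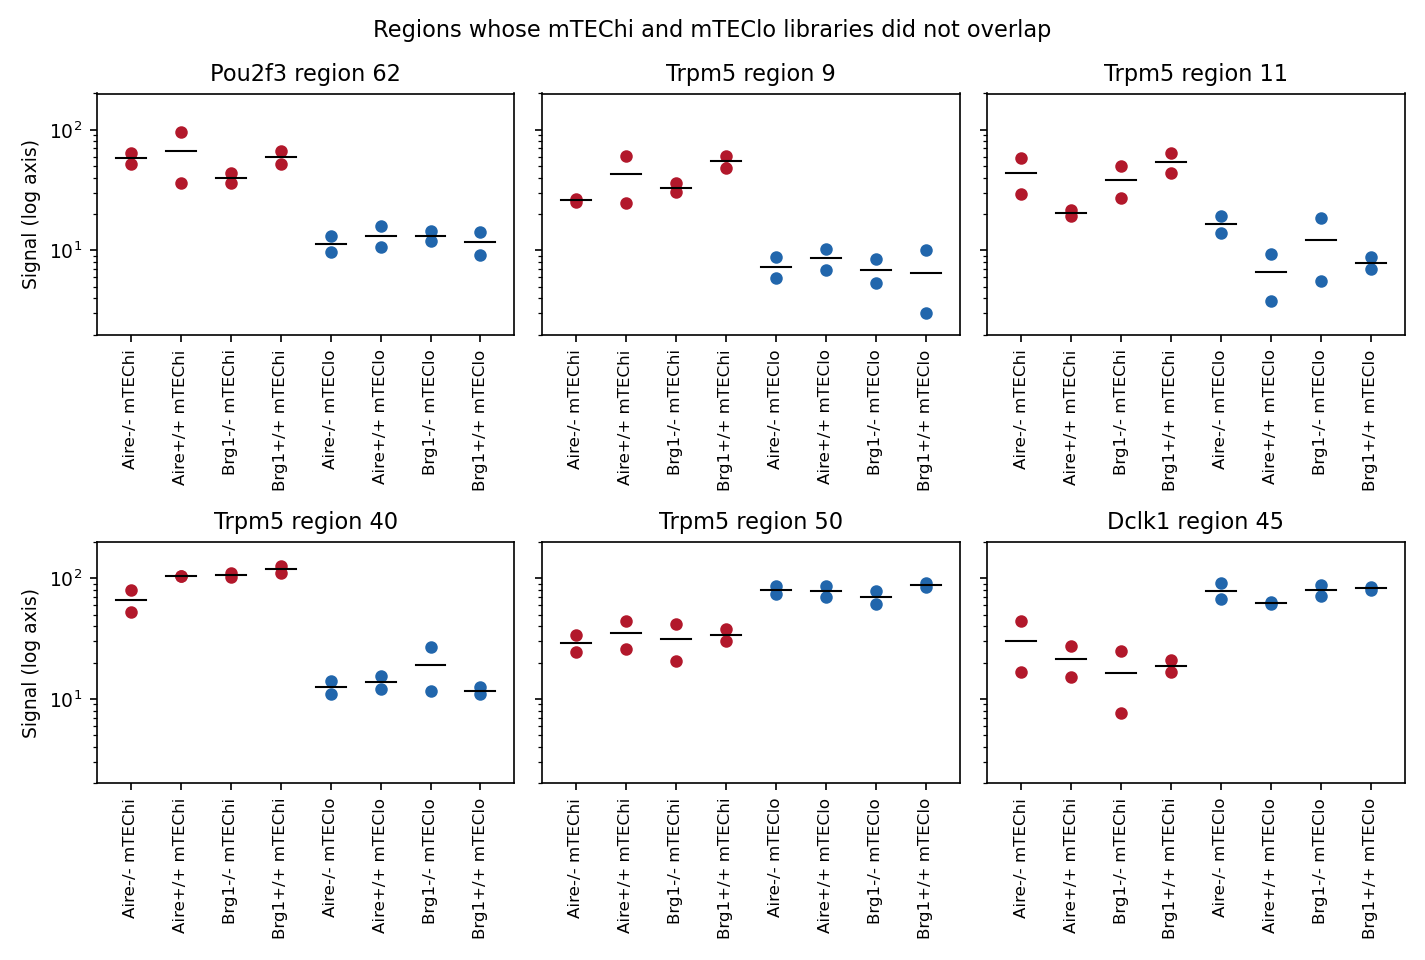
Signal (y axis, log scale) of each library at the 6 members whose mTEChi and mTEClo libraries did not overlap, by group (x axis); points are libraries (red mTEChi, blue mTEClo, 2 per group) and bars are group means. mTEChi lies above mTEClo at Pou2f3 region 62 and Trpm5 regions 9, 11 and 40, and below it at Trpm5 region 50 and Dclk1 region 45.

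Pou2f3 region 62 (chr9:43070014-43070513), near the end of the window, was the 1 member there whose fractions did not overlap. Its signal was 52.0 and 64.3 in Aire-/-, 95.7 and 36.5 in Aire+/+, 36.2 and 43.7 in Brg1-/-, and 67.1 and 51.7 in Brg1+/+ mTEChi. In mTEClo it was 13.1 and 9.64 in Aire-/-, 15.8 and 10.6 in Aire+/+, 12.0 and 14.4 in Brg1-/-, and 9.16 and 14.2 in Brg1+/+. Mean signal was 55.9 ± 19.7 in mTEChi, against 12.4 ± 2.42 in mTEClo (SD, n = 8 each), a log2 fold change of 2.04 (SE 0.28, limma adjusted p = 6.28e-07). The next region, 63 (chr9:43071907-43072406), was also called higher in mTEChi (1.67, SE 0.45, limma adjusted p = 0.0038). Its largest within-genotype difference was in Aire+/+ (4.12), where mTEChi had 16.6 and 29.8 and mTEClo had 0.790 and a listed 0. With the Brg1 line alone it was not called (1.19, limma adjusted p = 0.16).

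Pou2f3 region 60 (chr9:43052951-43053450) was the largest difference in the other direction at that window. Its mTEChi signal was 0.681, 7.81 and 12.3 (lowest, median and highest) and its mTEClo signal 9.91, 30.9 and 71.1 (-2.02, SE 0.35, limma adjusted p = 3.36e-05). The difference was -3.41 in Aire-/-, -2.25 in Aire+/+, -0.81 in Brg1-/- and -1.59 in Brg1+/+. With the Brg1 line alone it was not called (-1.20, limma adjusted p = 0.085). Regions 60 and 62, near neighbours on the chromosome, differed in opposite directions.

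The remaining called regions of the Pou2f3 window that had the largest differences were all higher in mTEChi: region 24 (1.81), region 29 (1.74), region 41 (1.56), region 30 (1.48) and region 53 (1.35). Their median signal was 12.0 to 26.9 in mTEChi and 4.89 to 7.99 in mTEClo, so these were regions of modest signal whose fractions overlapped. Regions 24, 29, 30 and 41 were not called with the Aire line alone, where their differences were 1.38, 1.20, 1.36 and 1.21. Region 53 was called neither with the Brg1 line alone (0.98) nor after re-centring (0.92, limma adjusted p = 0.055). Regions 53 to 55 formed a run of 3 neighbours called higher. Region 54 (chr9:43029678-43030177) was the strongest of them in signal, with 35.0, 71.9 and 111 in mTEChi and 25.2, 38.3 and 50.7 in mTEClo (0.90, limma adjusted p = 0.0018; 0.46 after re-centring, limma adjusted p = 0.13, and 0.53 with the Aire line alone, limma adjusted p = 0.26). Region 18 (chr9:42915196-42915695) was lower in mTEChi (13.4, 44.6 and 67.9, against 42.4, 78.7 and 95.7 in mTEClo; -0.89, limma adjusted p = 0.0031), and with the Brg1 line alone the difference was -0.22 (limma adjusted p = 0.63).

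At Dclk1, region 45 (chr3:55339551-55340050) separated the fractions. Its signal was 44.3 and 16.6 in Aire-/-, 15.3 and 27.3 in Aire+/+, 7.59 and 25.1 in Brg1-/-, and 21.1 and 16.6 in Brg1+/+ mTEChi. In mTEClo it was 66.8 and 90.6 in Aire-/-, 61.1 and 63.6 in Aire+/+, 88.3 and 70.9 in Brg1-/-, and 85.5 and 80.8 in Brg1+/+. Mean signal was 21.7 ± 10.98 in mTEChi, against 75.9 ± 11.8 in mTEClo (SD, n = 8 each), a log2 fold change of -1.89 (SE 0.26, limma adjusted p = 7.03e-07). Region 56 (chr3:55404187-55404686) had a slightly larger difference (-2.08, SE 0.36, limma adjusted p = 2.53e-05). It differed by -2.73 in Aire-/-, -3.03 in Aire+/+ and -2.59 in Brg1+/+ but by 0.024 in Brg1-/-, where mTEChi had 9.97 and 21.4 and mTEClo had 17.1 and 12.1. With the Brg1 line alone it was not called (-1.28, limma adjusted p = 0.090).

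Dclk1 region 9 (chr3:55030708-55031207) was the clearest exception to the direction of the window. Its signal was 29.4, 73.1 and 140 in mTEChi and 9.96, 22.6 and 32.8 in mTEClo (1.56, SE 0.26, limma adjusted p = 1.84e-05), and the difference was between 1.03 and 2.00 in each genotype. Further along the window, the neighbouring regions 12 and 13 were both lower in mTEChi. Region 13 (chr3:55046388-55046887) had 8.94, 23.6 and 48.4 in mTEChi and 46.1, 58.0 and 77.4 in mTEClo (-1.34, SE 0.25, limma adjusted p = 8.43e-05). Region 12 (chr3:55045551-55046050) differed by -0.72 (limma adjusted p = 0.0074), and by -0.49 with the Brg1 line alone (limma adjusted p = 0.27).

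Regions 6 and 7 (chr3:55016085-55018233), another pair of neighbours, were lower by -1.26 and -1.53, and region 37 (chr3:55299185-55299684) by -1.81. Median signal was 12.7, 13.9 and 7.48 in mTEChi at these 3 regions, against 38.1, 25.8 and 36.3 in mTEClo. Region 37 was higher in the Aire+/+ mTEChi 1 library (46.9) than in the other mTEChi libraries (2.00 to 18.4). Regions 7 and 37 were not called with the Aire line alone (-1.03 and -1.63, limma adjusted p = 0.12 and 0.063). Nor was region 6 with the Brg1 line alone (-0.996, limma adjusted p = 0.11). Region 31 (-1.21, limma adjusted p = 0.039) lost its call in 10 of the 16 fits that left out 1 library, among them each of Aire+/+ mTEChi 1, Aire-/- mTEChi 1 and Brg1+/+ mTEChi 1. Dclk1 region 41 (chr3:55324374-55324873), the most accessible of the window, had 26.8, 74.2 and 133 in mTEChi and 38.1, 50.3 and 67.5 in mTEClo and was not called (0.49, SE 0.23, limma adjusted p = 0.091). The lowest mTEChi value was that of the Aire+/+ mTEChi 2 library, and without that library the region was called (0.78, limma adjusted p = 0.0015).

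In all, 4 of the 177 tested members had every mTEChi library above every mTEClo library and 2 had the reverse, against 5.15% and 1.93% of all tested regions. Of the 27 members called higher, 21 had that sign in each of the 4 genotypes, as had 13 of the 17 called lower; among all called regions the share with 1 sign throughout was 85.9%. At Trpm5, 7 of the 11 regions called higher had 1 sign throughout. Median signal per library moved with the fraction (11.8 to 19.8 in mTEChi and 8.51 to 13.9 in mTEClo), and its part in these differences was not tested.

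The level of a window in a library, the mean log2(signal + 1) over its regions, was compared next, as a description with no test. At Pou2f3 the mTEChi libraries averaged 3.97 ± 0.25, against 3.80 ± 0.25 for mTEClo. At Trpm5 they averaged 3.92 ± 0.29, against 3.55 ± 0.27 for mTEClo. At Dclk1 they averaged 3.63 ± 0.25, against 3.90 ± 0.31 for mTEClo (SD over 8 libraries each). Libraries of the fractions overlapped at all 3 windows. Set against the median log2 value of its own library, the Dclk1 level was -0.39 (range -0.59 to -0.21) in mTEChi and 0.32 (0.11 to 0.50) in mTEClo, so the fractions no longer overlapped. This scale lowered the difference of mTEChi minus mTEClo at all 3 windows, at Dclk1 from -0.28 to -0.71. How many other windows of the genome would separate so was not counted. On that scale the Pou2f3 level was -0.045 in mTEChi and 0.21 in mTEClo, and the Trpm5 level was -0.093 and -0.034, which turns the sign of both differences.

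**Figure D3:**
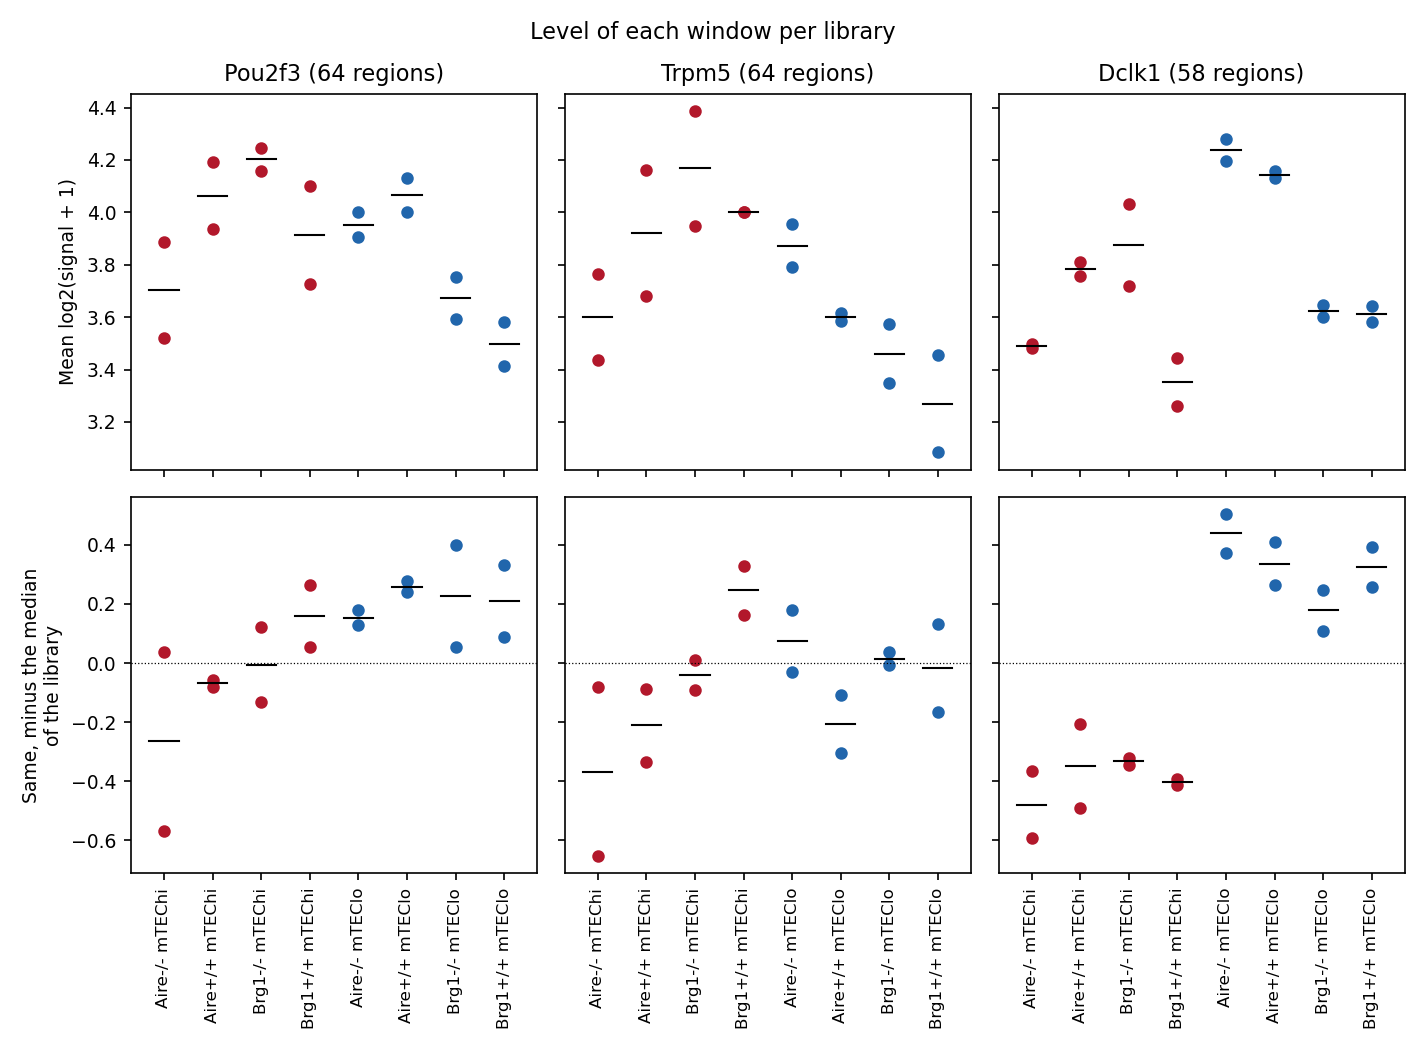
Mean log2(signal + 1) over all regions of a window per library (upper row, y axis) and the same minus the median log2 value of the library (lower row), by group (x axis); points are libraries (red mTEChi, blue mTEClo), bars are means of 2. In the lower row the Dclk1 panel has all mTEChi libraries below 0 (-0.59 to -0.21) and all mTEClo libraries above it (0.11 to 0.50).

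Over the 8 groups the Pou2f3 level was highest in Brg1-/- mTEChi (4.20 ± 0.061) and lowest in Brg1+/+ mTEClo (3.50 ± 0.12; SD, n = 2 each throughout). Between them, in falling order, stood Aire+/+ mTEClo (4.07 ± 0.094), Aire+/+ mTEChi (4.06 ± 0.18), Aire-/- mTEClo (3.95 ± 0.066), Brg1+/+ mTEChi (3.91 ± 0.26), Aire-/- mTEChi (3.70 ± 0.26) and Brg1-/- mTEClo (3.67 ± 0.12). Only the groups at either end of this order had both libraries clear of the next group's. The Aire+/+ mTEChi 2 library (4.19) still lay above the Brg1-/- mTEChi 1 library (4.16). Set against the library median, the Pou2f3 level was -0.0062 in Brg1-/- mTEChi and 0.21 in Brg1+/+ mTEClo, so this order did not hold. It was then highest in Aire+/+ mTEClo (0.26) and lowest in Aire-/- mTEChi (-0.26). The Trpm5 level was again highest in Brg1-/- mTEChi (4.17 ± 0.31), followed by Brg1+/+ mTEChi (4.00 ± 0.00050), Aire+/+ mTEChi (3.92 ± 0.34) and Aire-/- mTEClo (3.87 ± 0.12), whose libraries overlapped from each group to the next. Below these stood Aire-/- mTEChi (3.60 ± 0.23), Aire+/+ mTEClo (3.60 ± 0.019), Brg1-/- mTEClo (3.46 ± 0.16) and Brg1+/+ mTEClo (3.27 ± 0.26). On the scale of these means, Aire-/- was the 1 genotype whose Trpm5 level was lower in mTEChi than in mTEClo. Set against the library median, 3 of 4 genotypes were lower in mTEChi: Aire-/- (-0.37 in mTEChi and 0.074 in mTEClo), Aire+/+ (-0.211 and -0.206) and Brg1-/- (-0.040 and 0.015).

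The Dclk1 level was highest in Aire-/- mTEClo (4.24 ± 0.061) and Aire+/+ mTEClo (4.14 ± 0.020). It was 3.88 ± 0.22 in Brg1-/- mTEChi and 3.78 ± 0.037 in Aire+/+ mTEChi, and these overlapped. It was 3.62 ± 0.033 in Brg1-/- mTEClo and 3.61 ± 0.043 in Brg1+/+ mTEClo, which also overlapped. Aire-/- mTEChi (3.49 ± 0.012) and Brg1+/+ mTEChi (3.35 ± 0.13) were lowest. Brg1-/- was the 1 genotype whose Dclk1 level was higher in mTEChi than in mTEClo, and on the scale set against the library median it was -0.33 in mTEChi and 0.18 in mTEClo.

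Within single genotypes, the members called for mTEChi over mTEClo numbered 2 higher and 9 lower in Aire-/-, 6 and 3 in Aire+/+, 8 and 2 in Brg1-/-, and 9 and 7 in Brg1+/+. Among all regions, the shares called higher and lower were 7.15% and 4.22% in Aire-/-, 5.14% and 3.65% in Aire+/+, 6.61% and 1.5% in Brg1-/-, and 9.21% and 3.75% in Brg1+/+. In either direction the shares of all regions were 11.4%, 8.79%, 8.11% and 13% in the same order of genotypes. At an unadjusted p under 0.05, limma gave 33, 29, 29 and 37 members, against 25.2%, 22.7%, 24.8% and 27.4% of all regions. The median difference over the members was -0.50 in Aire-/-, -0.095 in Aire+/+, 0.45 in Brg1-/- and 0.36 in Brg1+/+, against 0.096, 0.16, 0.62 and 0.42 over all regions tested. These counts rest on 2 libraries a group. The share of all regions called in fits without 1 library is not set beside them. Without 1 library they ran from 3 to 14 of the 177 in Aire-/-, from 1 to 14 in Aire+/+, from 1 to 12 in Brg1-/- and from 3 to 17 in Brg1+/+.

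The next contrast took the mTEChi over mTEClo difference of the Aire line (both its genotypes) minus that of the Brg1 line. It was added after its within-line values had been seen, so its counts are given as a description. No member passed the threshold, and 0% of all regions did. At an unadjusted p under 0.05 there were 26 of 177 members (14.7%), of which 25 had a more negative difference in the Aire line, against 10.3% of all regions. At Trpm5 there were 14 of 62, all more negative in the Aire line. The median over the members was -0.62, against -0.33 over all regions. Under the other scalings these medians were -0.18 against 0.011 (quantile), -0.25 against 0.034 (re-centring) and -0.17 against 0.017 (cyclic loess). Members at that unadjusted p then numbered 9 (8 negative), 14 (11 negative) and 10 (8 negative), against 7.91%, 8.68% and 7.22% of all regions. At Trpm5 they numbered 4, 9 and 5, all negative. The smallest p at Trpm5 was that of region 14 (chr7:150238473-150238972; -1.53, SE 0.41, limma adjusted p = 0.27).

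Trpm5 region 14 had a signal of 14.2 and 11.1 in Aire-/-, 25.4 and 38.3 in Aire+/+, 75.1 and 65.7 in Brg1-/-, and 62.8 and 113 in Brg1+/+ mTEChi. In mTEClo it had 56.8 and 59.7 in Aire-/-, 46.0 and 41.6 in Aire+/+, 73.6 and 59.5 in Brg1-/-, and 72.2 and 59.2 in Brg1+/+. Among mTEChi, the 4 libraries of the Aire line lay below the 4 of the Brg1 line. The region was picked for its small p in this contrast, and how many of all regions separate so was not counted. For mTEChi over mTEClo it was called lower on the mean of 4 genotypes (-0.54). The differences were -2.13 in Aire-/- (called), -0.48 in Aire+/+, 0.085 in Brg1-/- and 0.36 in Brg1+/+. Region 22 (chr7:150246836-150247335), named after its values were seen, also had the Aire line below the Brg1 line in mTEChi. Unlike region 14, region 22 was called higher in mTEChi than in mTEClo on the mean of 4 genotypes (1.02). It had 9.62 and 10.5 in Aire-/-, 2.98 and 8.54 in Aire+/+, 41.6 and 70.2 in Brg1-/-, and 38.4 and 60.8 in Brg1+/+ mTEChi, while all mTEClo libraries lay between 1.499 and 21.4. Aire+/+ against Brg1+/+ mTEChi differed there by -3.003 (SE 0.70, limma adjusted p = 0.072). It was called under a pseudocount of 5 and under each of the 3 other scalings (limma adjusted p = 0.022 to 0.044).

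Between the wild types of the lines, no member was called in mTEChi or in mTEClo, where 0.156% of all regions (0.0653% higher and 0.091% lower in Aire+/+) and 0.0368% (0.00178% higher and 0.0351% lower) were. At an unadjusted p under 0.05 there were 19 members in mTEChi (14 higher in Aire+/+, 5 lower) and 10 in mTEClo (8 higher, 2 lower), against 10.5% and 7.4% of all regions. Under the other scalings the 14 and 5 in mTEChi became 11 and 16 (quantile), 7 and 17 (re-centring) and 10 and 12 (cyclic loess), and the 8 and 2 in mTEClo became 1 and 4, 1 and 5, and 2 and 3. Without the Aire+/+ mTEChi 1 library, 0.159% of all regions were called higher and 0.554% lower in mTEChi, and 1 member was called: Trpm5 region 10, where the listed 0 of Aire+/+ mTEChi 2 then stands alone (-5.62, limma adjusted p = 0.0033).

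The knockout comparisons ask whether loss of Aire or of Brg1 altered accessibility. No member was called for either knockout in either fraction. Of all regions, 0.0209% were called for Aire-/- over Aire+/+ in mTEChi (0.0111% higher and 0.00977% lower), 0% for the same in mTEClo, 0.0257% for Brg1-/- over Brg1+/+ in mTEChi (0.0146% higher and 0.0111% lower) and 0.000444% for the same in mTEClo. At an unadjusted p under 0.05, limma gave 16 of the 177 members for Aire-/- in mTEChi (9.04%), of which 15 were lower in the knockout, against 10.2% of all regions. There were 5 for Aire-/- in mTEClo, against 2.5% of all regions, 16 for Brg1-/- in mTEChi, against 10.7%, and 4 for Brg1-/- in mTEClo, against 6.15%. The 15 of 16 lower for Aire-/- in mTEChi became 14 of 18 after quantile normalization and 12 of 15 after re-centring. How all regions split by direction at an unadjusted p under 0.05 was not counted for any contrast. All 8 of the Dclk1 regions among those 16 for Brg1-/- in mTEChi were higher in the knockout, but after quantile normalization, re-centring and cyclic loess normalization 4 of 6, 4 of 8 and 4 of 5 were.

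In mTEChi the median for Aire-/- over Aire+/+ was -0.20 at Pou2f3, -0.44 at Trpm5 and -0.21 at Dclk1, against -0.0015 over all regions. The median for Brg1-/- over Brg1+/+ in mTEChi was 0.30, 0.18 and 0.44 at the 3 windows, against 0.22. These signs moved with the scaling: for Brg1-/- the medians were 0.13, -0.064 and 0.18 after quantile normalization (all regions -0.0073), -0.16, -0.27 and -0.011 after re-centring (all regions -0.23), and 0.14, -0.13 and 0.23 after cyclic loess normalization (all regions -0.012). For Aire-/- the 3 medians stayed negative, from -0.44 to -0.036, while the median of all regions was 0.16 after re-centring. In mTEClo the medians ranged from -0.051 to 0.20 over windows and knockouts, against 0.00045 for Aire-/- and 0.048 for Brg1-/- over all regions.

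**Figure D4:**
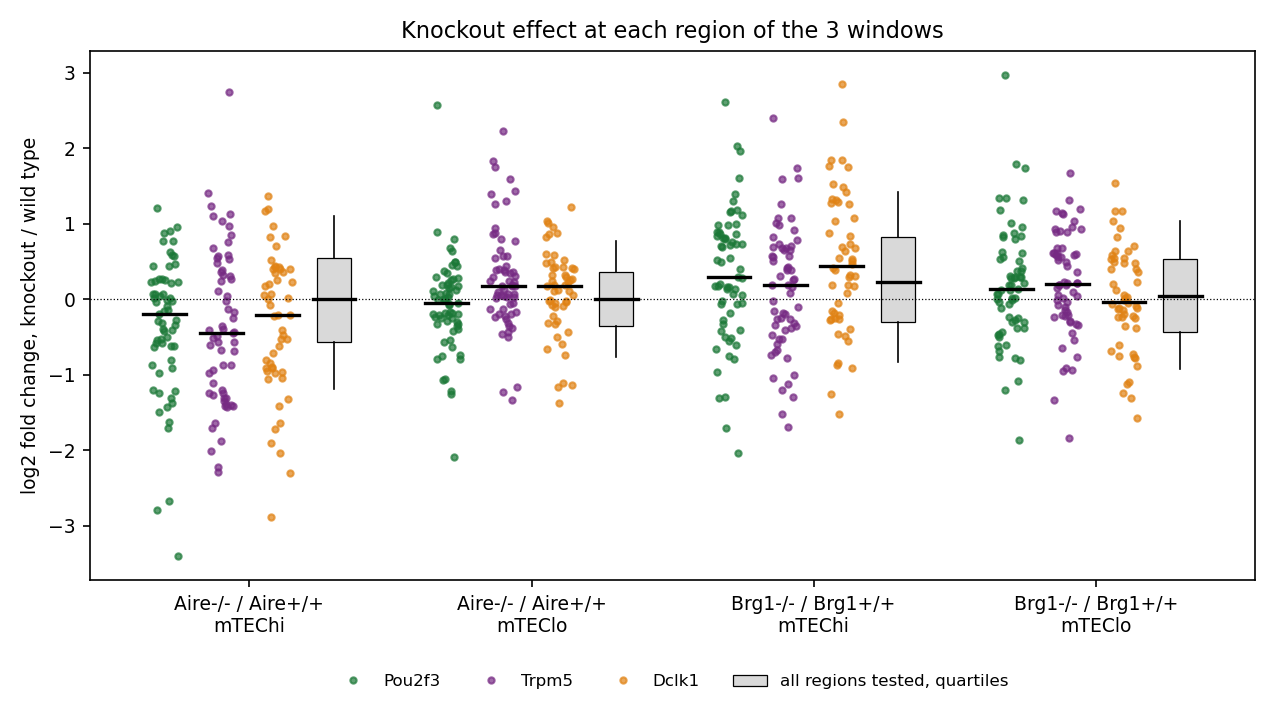
Log2 fold change of knockout over wild type (y axis) at each tested region of the 3 windows, for each knockout and fraction (x axis); coloured points are regions, thick bars are medians, and the grey boxes give the quartiles of all 225281 regions tested, with lines to the 10th and 90th percentiles. The points spread around the grey boxes, and none was called; the lowest window median is that of Trpm5 for Aire-/- in mTEChi (-0.44).

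The regions with the smallest p at each window are given as values. For Aire-/- over Aire+/+ in mTEChi, Pou2f3 region 22 (chr9:42939910-42940409) had 0.810 and 1.58 in Aire-/-, against 7.71 and 58.8 in Aire+/+ (-3.40, SE 0.85, limma adjusted p = 0.14). Dclk1 region 55 (chr3:55403673-55404172) had 1.65 and 6.11 in Aire-/-, against 11.1 and 84.5 in Aire+/+ (-2.89, SE 0.92, limma adjusted p = 0.27). In both, the high value was that of the Aire+/+ mTEChi 2 library, which had the lowest median correlation in mTEChi. Trpm5 region 14, given above, had -1.25 (SE 0.41, limma adjusted p = 0.28). When the Aire+/+ mTEChi 1 library was left out, 0.819% of all regions were called higher and 0.176% lower, and 4 members were called against the remaining Aire+/+ mTEChi 2 library: Pou2f3 region 22 (-4.79) and Dclk1 region 55 (-4.30), and, named after their values were seen, Trpm5 region 10 (5.26) and Dclk1 region 40 (3.11).

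For Brg1-/- over Brg1+/+ in mTEChi, Pou2f3 region 48 (chr9:43016443-43016942) had 36.7 and 32.0 in Brg1-/-, against 1.31 and 13.4 in Brg1+/+ (2.61, SE 0.76, limma adjusted p = 0.21). Without the Brg1+/+ mTEChi 2 library it was called (3.93, limma adjusted p = 0.042), in a fit that called 0.14% of all regions higher and 0.0107% lower. Dclk1 region 3 (chr3:54999767-55000266) had 19.9 and 40.5 in Brg1-/-, against 6.97 and 7.52 in Brg1+/+ (1.84, SE 0.57, limma adjusted p = 0.23). Trpm5 region 33 (chr7:150275522-150276021) had 5.40 and 28.3 in Brg1-/-, against 1.27 and 1.97 in Brg1+/+ (2.40, SE 1.00, limma adjusted p = 0.39).

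In mTEClo the smallest p for Aire-/- were at Pou2f3 region 63 (2.57), Trpm5 region 47 (1.83) and Dclk1 region 10 (-1.38), each with a limma adjusted p of 1.00. At region 47 (chr7:150306082-150306581) the signal was 19.0 and 32.0 in Aire-/-, against 11.4 and 3.21 in Aire+/+. For Brg1-/- they were at Pou2f3 region 59 (2.97), Trpm5 region 28 (-1.84) and Dclk1 region 20 (-1.57), with limma adjusted p of 0.66, 0.81 and 0.77. At region 59 (chr9:43051623-43052122) the signal was 12.3 and 8.89 in Brg1-/-, against 0.338 and 0.601 in Brg1+/+, a low region at the 18.5th percentile of mean signal.

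Whether a knockout effect differed between the fractions was tested as its mTEChi value minus its mTEClo value. No member passed the threshold for Aire or for Brg1, where 0.000444% and 0% of all regions did. At an unadjusted p under 0.05 there were 13 members for Aire, 12 of them negative, against 5.15% of all regions, and 7 for Brg1, 6 of them positive, against 7.09%. At Trpm5 7 of 62 were under that p for Aire, all negative, and the median there was -0.55, against -0.010 over all regions. Under the other scalings that median was -0.59, -0.39 and -0.51 (quantile, re-centring and cyclic loess), with 7 of 9, 6 of 7 and 7 of 8 regions negative at that p. For Brg1, 1 of 5, 2 of 8 and 3 of 8 members were positive under the same scalings.

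Regions of 1 window had low median correlations with each other, and no such value was computed for pairs outside the windows. The median Pearson correlation of log2(signal + 1) over the 16 libraries between pairs of tested regions was 0.073 at Pou2f3 (1953 pairs), 0.14 at Trpm5 (1891 pairs) and 0.14 at Dclk1 (1326 pairs), with a range of -0.89 to 0.93 at Trpm5. Outside the windows, the regions most like Trpm5 region 40 over the 16 libraries were chr10:80403351-80403850 (r = 0.976), chr6:51128370-51128869 (r = 0.975) and chr11:117653500-117653999 (r = 0.973). Those most like Pou2f3 region 62 were chr17:26836706-26837205 (r = 0.976), chr15:100803206-100803705 (r = 0.973) and chr2:32596462-32596961 (r = 0.972). For Dclk1 region 56 they were chr1:180929875-180930374 (r = 0.973), chr13:69731055-69731554 (r = 0.964) and chr8:106334729-106335228 (r = 0.954). For the most accessible regions, Pou2f3 region 16 and Dclk1 region 41, the highest r was 0.858 and 0.929. All of these correlations share the same libraries, scaling and split by fraction, and are given as a description.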

How the data were processed

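ATAC-seq was measured in 16 libraries of sorted mouse mTECs. The table that the authors deposited lists 250313 regions of 500 bp, with 1 signal value per library. Bowtie2, MACS2 and mm9 are named, without versions, in the submitters' processing notes. The sources used here do not say how regions were defined, reads shifted, duplicates removed or the signal scaled, so levels compare between libraries only as far as that scaling allows. Region starts were taken as counted from 0 and are printed counted from 1. Each column matched the description of 1 library.

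The windows, members and lists were chosen with earlier results of these data known. Log2(signal + 1) was modelled with limma 3.58.1 (R 4.3.3), with a mean per group for 8 groups, over the 225281 regions whose mean was at or above the 10th percentile (7.48), with trend and robust variance moderation and 8 residual degrees of freedom. Fold changes on this scale understate the change of low regions. Calls were two-sided, at a Benjamini-Hochberg adjusted p under 0.05 within each of 14 contrasts. The procedure was run on simulated data with known changes and independent normal noise. The simulation held no outlying library and no scaling shift, so it does not test the calls under those conditions. The contrast of the sort difference between lines was added after its within-line values had been seen.

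Named regions were, per window, the 3 of highest mean signal, up to 8 called sort differences of largest size, any call of a knockout, interaction or line contrast, and the smallest p for each knockout contrast without calls. The 3 most similar regions elsewhere were ranked by Pearson correlation. Alternatives changed the pseudocount, filter, scaling, weights, replicate block or the libraries in the fit. Lists of further tuft cell genes and of cell type markers were not used, since they need an mm9 annotation.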

Additional observations from a re-analysis of the deposited data

How the results depend on the processing

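The libraries have unknown depth and 2 replicates a group, and a call in a single genotype rests on 4 values. The number of members called higher in mTEChi moved with the scaling. The share of all regions called in the same fit is not set beside the counts below. They therefore do not show a change particular to these windows. The cause of each change was not tested.

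For mTEChi over mTEClo, mean of 4 genotypes, Pou2f3 had 19 called regions and had 8 with the Aire line alone and 10 with the Brg1 line alone. Trpm5 had 14, and 7 with the Aire line alone. Dclk1 had 11, and 19, 21 and 18 after quantile normalization, re-centring and cyclic loess, and 6 with the Brg1 line alone. The fits with 1 line have fewer samples. Over the 16 fits that left out 1 library the counts ran from 15 to 20 at Pou2f3, from 10 to 14 at Trpm5 and from 9 to 15 at Dclk1.

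Within genotypes, Aire-/- had 11 calls at the 3 windows, against 17 after quantile normalization and 23 with array quality weights. Aire+/+ had 9, against 15 after quantile normalization. Brg1-/- had 10, against 6 with a filter at the 50th percentile, where fewer members were tested. It had 5 after quantile normalization, 6 after re-centring, 3 after cyclic loess, 5 with quality weights and 6 with the Brg1 line alone. Brg1+/+ had 16, against 10 after quantile normalization. Leaving out 1 library gave 3 to 14, 1 to 14, 1 to 12 and 3 to 17 calls in Aire-/-, Aire+/+, Brg1-/- and Brg1+/+. In Aire-/- the count was 6 without mTEChi 1, 5 without mTEClo 1 and 3 without mTEClo 2. In Aire+/+ it was 14 without mTEChi 1, 4 without mTEClo 1 and 1 without mTEClo 2. In Brg1-/- it was 4 without mTEChi 1, 5 without mTEChi 2, 1 without mTEClo 1, 3 without mTEClo 2, and 6 without Aire-/- mTEClo 1, Aire-/- mTEClo 2 or Brg1+/+ mTEClo 2. In Brg1+/+ it was 8 without mTEChi 1, 6 without mTEChi 2, 3 without mTEClo 1 and 5 without mTEClo 2.

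The knockout contrasts had 0 calls at the windows under every alternative run, except that leaving out 1 library gave 0 to 4 calls for Aire-/- in mTEChi and 0 to 1 for Brg1-/- in mTEChi. Aire+/+ over Brg1+/+ in mTEChi had 0, and 1 (Trpm5 region 22) with a pseudocount of 5, quantile normalization, re-centring and cyclic loess, and 0 to 1 without 1 library. The interactions, Aire+/+ over Brg1+/+ in mTEClo and the contrast between lines had 0 under every alternative that could be fitted.

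The level difference of mTEChi minus mTEClo was 0.17 at Pou2f3 and -0.26 set against the library median, 0.37 and -0.059 at Trpm5, and -0.28 and -0.71 at Dclk1. Without 1 library it ran from 0.12 to 0.24, from 0.30 to 0.44 and from -0.34 to -0.23. Trpm5 region 3 turned from 0.33 to -0.099 after re-centring.

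Replicate numbers showed no shared effect: deviations of number 1 correlated between groups with r from -0.018 to 0.034 over 28 pairs. Whether libraries with the same number came from the same mice is not known. With a replicate block the sort counts were 19, 14 and 11 at the 3 windows and 12, 9, 9 and 16 in Aire-/-, Aire+/+, Brg1-/- and Brg1+/+, and no named region changed its call.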
